A study of Mus musculus with 35 samples.

Results

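Cytosolic ribosomal protein mRNAs encode the proteins of the small (Rps) and large (Rpl) subunit of the ribosome that translates in the cytosol. They were taken by gene name: every gene named Rpl or Rps with a number and at most 1 of the letters a, x, l or y, together with Rplp0, Rplp1, Rplp2 and Rpsa, that also had a row in the deposited count table. Pseudogenes and the Rps6k kinases were left out. The rule matched 83 genes in the deposited RPKM table of 54393 genes, and 78 of them were among the 9239 genes of the count table, 31 for the small and 47 for the large subunit. All 78 passed the filter on low counts in every fit, and the lowest count of a member in any of the 35 libraries was 85. The other 5 matches were not in the count table. They are the gene copies Rpl3l, Rpl6l and Rps4l, at a mean of 0.88, 0.12 and 0.065 RPKM (reads relative to transcript length and sequencing depth) in the total lysate of control cells, and Rpl10l and Rpl32l, which were listed at 0.

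Poly(A) RNA was sequenced from N2a Flp-In rtTA cells, a mouse neuroblastoma line, after knockdown of Chtop and after its rescue with either of 2 splice isoforms. The series asks how Chtop and its isoforms affect where transcripts are found in the cell. Rescue cells had a Chtop siRNA and doxycycline, which switches on an siRNA-resistant FLAG-tagged Chtop cDNA. Knockdown cells had the Chtop siRNA without doxycycline, and control cells had a non-targeting siRNA pool without doxycycline. All 3 conditions were set up in 2 lines that carry the cDNA, the mEx5 line with the isoform that lacks exon 5 and the pEx5 line with the isoform that contains it, so control cells carry the transgene too. The medium was changed at 24 h after transfection and cells were taken at 72 h, when 20% of the counted cells was kept as total lysate and the remainder was separated into a nuclear and a cytoplasmic fraction. Each of the 18 groups had 2 biological replicates, except that the cytoplasm of pEx5 control cells had 1 library. A condition over both lines therefore has 4 libraries per fraction, and control cytoplasm has 3. As a model this has limits: the knockdown rests on 1 siRNA product, control wells were fewer than the others, no group had doxycycline with the control siRNA, and no spike-in RNA is named, so every value is relative to the other mRNAs of the same fraction. In bulk libraries a lower level in every cell and in part of the cells cannot be told apart.

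Nearly all ribosomal proteins are needed in equal number for each ribosome, and their mRNAs are among the shortest, most abundant and most stable in dividing cells. Many vertebrate ribosomal protein mRNAs start with a cytosine followed by an unbroken run of pyrimidines, the terminal oligopyrimidine (TOP) motif, through which the mTOR kinase and the RNA-binding protein Larp1 control their translation and storage. Chtop is a nuclear RNA-binding protein of the TREX complex, which loads export factors onto mRNA so that it can leave the nucleus.

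The sequence around the annotated transcription start is shown for 6 members, 4 with a TOP start together with Rpl12 and Rpl5, which had high nuclear ratios when counted without their copies. Each window holds 15 bases before the start and 15 bases from the start on, in the sense direction, from RefSeq on GRCm38.p6. Capitals mark the TOP run, defined as C at the first transcribed base followed by at least 4 letters C or T.
Rpl35: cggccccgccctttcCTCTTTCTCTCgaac
Rpl28: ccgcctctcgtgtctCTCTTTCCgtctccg
Rps6: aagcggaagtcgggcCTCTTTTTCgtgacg
Rplp2: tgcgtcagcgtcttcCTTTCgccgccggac
Rpl12: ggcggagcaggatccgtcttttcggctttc
Rpl5: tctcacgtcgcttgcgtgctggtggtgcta
The windows lie at chr2:39005117-39005146 on the minus strand for Rpl35, chr7:4792950-4792979 on the plus strand for Rpl28, chr4:86857353-86857382 on the minus strand for Rps6, chr7:141447636-141447665 on the plus strand for Rplp2, chr2:32961697-32961726 on the plus strand for Rpl12 and chr5:107900513-107900542 on the plus strand for Rpl5. RefSeq promoter entries were found for 58 of the 78 members. A TOP run stood at the annotated start of 13 of these 58 members (22.4%), against 813 of all 27025 genes with an entry (3.01%). These 13 were Rpl14, Rpl15, Rpl28, Rpl35, Rpl35a, Rpl38, Rplp2, Rps10, Rps15a, Rps18, Rps21, Rps27 and Rps6. With the start of the run allowed anywhere within 10 bases of the annotated start, 36 members (62.1%) and 34.4% of all genes had one. The windows of Rpl12 and Rpl5 hold no run at the annotated base, which says only that the letters are not there. In the window of Rpl12 a run does begin within 10 bases of the annotated start.

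The members were among the most abundant mRNAs of these cells. In total lysate of control cells, 22 of the 50 genes with the highest mean RPKM were members, as were 43 of the first 100 and 62 of the first 200. Rplp1, an acidic stalk protein, led at 9422 ± 1155 RPKM (SD, n = 4). It was followed by Rpl41, the smallest protein of the large subunit, at 5982 ± 877, Rpl13 at 5971 ± 650, Rps2 at 5907 ± 465, Rpl8 at 5554 ± 368, Rpl23a at 5414 ± 641, Rps15 at 5227 ± 643 and Rpl32 at 5182 ± 700 RPKM. From Rpl41 to Rpl32, neighbours in this order differed by less than their SDs. The lowest 8 were Rpl39l at 60.1 ± 8.94, Rpl5 at 85.4 ± 10.1, Rps18 at 222.6 ± 27, Rps27 at 224.6 ± 257, Rpl30 at 265.7 ± 22, Rps12 at 292.4 ± 31.3, Rpl29 at 293.8 ± 40.7 and Rps27l at 310.4 ± 55.3 RPKM. Rpl39l and Rps27l are paralogs of Rpl39, at 391.6 ± 56.4, and of Rps27. The other stalk proteins, Rplp0 and Rplp2, had 3413 ± 262 and 1680 ± 159 RPKM. Rpl11, which joins Rpl5 and 5S rRNA in the 5S ribonucleoprotein, had 3278 ± 182 RPKM, and Rps4x, the X-linked copy of the small-subunit protein S4, had 3568 ± 320 RPKM.

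Several of these low values came with a near-identical copy that took most of the counts. A search with shared 31-base words in the GENCODE M21 transcripts found 34 annotated copies of 28 members in the count table, and the other 50 members had none. Rpl5 at 85.4 RPKM stood beside its copy Gm15500 at 2881 RPKM, and Rpl12 at 406.8 ± 25.4 RPKM stood beside Gm10275 at 5810 RPKM, both in control total lysate. Rps12, a small-subunit protein, stood beside Rps12-ps3 at 7443 RPKM, and Rpl3, at the peptidyl transferase centre, had 360.1 ± 34.0 RPKM beside 2530 RPKM of Rpl3-ps1. Rpl10, the last protein to join the large subunit, had 1645 ± 442 RPKM beside 3541 RPKM of Rpl10-ps3. Reads of such pairs can be placed on either partner, so values of the 28 members alone are uncertain. Each comparison over both lines was therefore also computed with the counts of a member and its copies summed, a choice made after the data had been seen.

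The libraries held between 11681781 and 40105458 counts, with 20652832 to 36102129 in total lysate, 11681781 to 28705620 in nuclei and 19478702 to 40105458 in cytoplasm. Chtop itself had 186, 221, 282 and 204 CPM (counts scaled to the library total) in total lysate of rescue cells, 32.2, 34.7, 22 and 19.8 CPM in knockdown cells and 139, 139, 135 and 125 CPM in control cells. Its knockdown over control was -2.36 on the log2 scale in total lysate (edgeR's quasi-likelihood test, adjusted p = 3.6e-06), -0.84 in nuclei (adjusted p = 5.9e-04) and -2.63 in cytoplasm (adjusted p = 4.1e-08). Of 22 markers of neuroblastoma and neurons, 17 reached 1 RPKM in control total lysate. Of the markers of other cells, 1 of 3 for blood, 1 of 3 for endothelium, 1 of 3 for epithelium, 1 of 5 for fibroblasts and 1 of 4 for glia did.

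Together the 78 members made up 7.04 to 8.85% of all counts in total lysate libraries, 2.79 to 4.46% in nuclei and 5.57 to 7.29% in cytoplasm. In total lysate their share was 7.67 ± 0.771% in rescue cells, 7.70 ± 0.820% in knockdown cells and 7.82 ± 0.509% in control cells (SD, n = 4 each), and the ranges overlapped. In nuclei it was 3.72 ± 0.692% in rescue, 3.51 ± 0.532% in knockdown and 3.62 ± 0.360% in control cells (SD, n = 4 each), also with overlap. In cytoplasm it was 5.94 ± 0.381% in rescue cells (5.64 to 6.45%, n = 4), 5.71 ± 0.143% in knockdown cells (5.57 to 5.86%, n = 4) and 6.86 ± 0.437% in control cells (6.41 to 7.29%, n = 3). The 4 cytoplasmic knockdown libraries all lay below the 3 control libraries, while the highest rescue library lay just above the lowest control library.

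**Figure D1:**
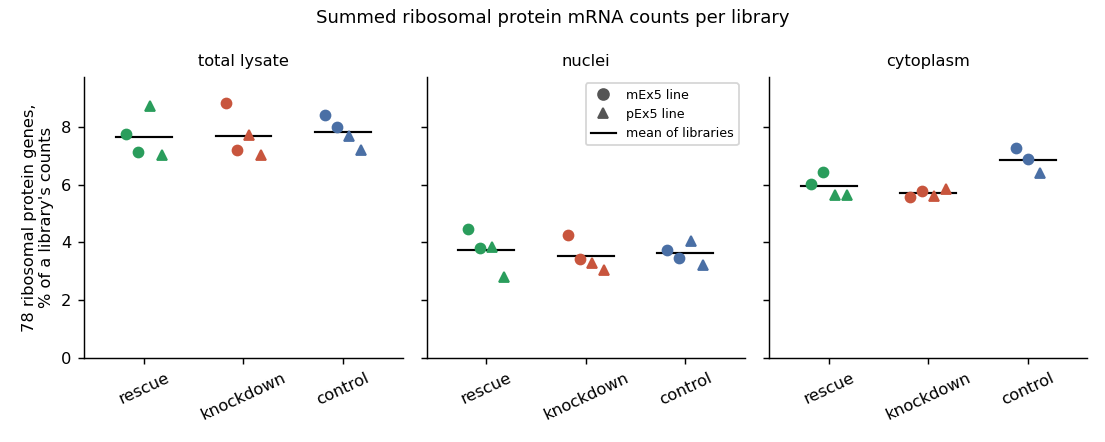
Summed counts of the 78 ribosomal protein genes as a percentage of each library's counts (y axis), for rescue, knockdown and control cells (x axis) in total lysate, nuclei and cytoplasm. Points are libraries, circles for the mEx5 and triangles for the pEx5 line, and bars are means; the cytoplasmic knockdown libraries lie at 5.57 to 5.86% and the control libraries at 6.41 to 7.29%.

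In control cells ribosomal protein mRNAs were lower in nuclei than in cytoplasm, relative to the other mRNAs of each fraction. Of the 78 members 64 (82.1%) were lower and 5 (6.41%) higher in nuclei, with a median log2 ratio of -0.89, while 36.1% of all genes tested were lower and 33.8% higher. The 50 members without copies were all below 0, between -1.32 and -0.35 with a median of -0.89, and 45 of them were called lower and 0 higher. Rplp0, the stalk's base, showed it with 957, 1041, 1261 and 1033 CPM in nuclei, against 2703, 2635 and 2426 CPM in cytoplasm (log2 ratio -1.24, SE 0.12, adjusted p = 1.7e-07 by edgeR's quasi-likelihood test). Here and below, libraries are listed in the order mEx5 replicate 1, mEx5 replicate 2, pEx5 replicate 1 and pEx5 replicate 2, and control cytoplasm lacks the last. All nuclear libraries of Rplp0 lay far below all cytoplasmic ones.

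The members with the lowest nuclear ratios in control cells were Rps7 at -1.33, Rpl29 at -1.33, Rpl23a at -1.32, Rpl35 at -1.31, Rps4x at -1.29 and Rpl32 at -1.28. Of these Rps7 and Rpl29 have copies, which took 42.5% and 83.6% of the counts of member and copy together. Rps4x had 694, 671, 803 and 628 CPM in nuclei, against 1949, 1802 and 1567 CPM in cytoplasm, without overlap (log2 ratio -1.29, SE 0.13, adjusted p = 3.0e-07, edgeR). Rpl35, which sits at the exit of the nascent chain tunnel, had 312, 211, 306 and 207 CPM in nuclei, against 642, 512 and 725 CPM in cytoplasm (log2 ratio -1.31, SE 0.25, adjusted p = 2.4e-04, edgeR). In both fractions its replicate 1 was above its replicate 2 in the mEx5 line, and the ranges of nuclei and cytoplasm did not overlap. The other stalk members had ratios of -1.04 for Rplp1 and -0.88 for Rplp2, and Rpl11 had -0.67, all called lower. Among the paralogs Rps27l was at -0.98 and Rpl39l at -0.92, both called lower.

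The 5 members called higher in nuclei of control cells were Rpl12 at 0.71, Rps18 at 0.70, Rpl5 at 0.65, Rps12 at 0.46 and Rpl3 at 0.41, and each has copies. Rpl12, a large-subunit protein at the base of the stalk, had 267, 297, 312 and 264 CPM in nuclei, against 192, 201 and 156 CPM in cytoplasm. Summed with its copy Gm10275, it had 729.6, 761, 986 and 758 CPM in nuclei, against 1812, 1617 and 1541 CPM in cytoplasm. The order of the fractions thus turned round when the copy was added, in every library. The ratio of the sum was -1.0 for Rpl12 (adjusted p = 1.2e-06), -0.58 for Rps18 (adjusted p = 0.0041), -0.92 for Rpl5 (adjusted p = 4.0e-06), -0.97 for Rps12 (adjusted p = 6.3e-05) and -0.55 for Rpl3 (adjusted p = 0.00028), all by edgeR. The copies alone were at -1.47 for Gm10275, -1.04 for Gm15500, -1.15 for Rps12-ps3 and -0.77 for Rpl3-ps1. With copies summed, 24 of the 28 members with copies were lower in nuclei and 0 higher, against 19 and 5 alone. DESeq2 called as many of the 78 members, 64 lower and 5 higher.

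In knockdown cells 55 members were lower and 7 higher in nuclei than in cytoplasm, with a median of -0.58, beside 38.7% of all genes lower and 36.4% higher. In rescue cells 54 were lower and 7 higher, with a median of -0.59, beside 37.5% and 35.5% of all genes. Of the 50 members without copies 38 were lower and 0 higher in rescue and likewise 38 and 0 in knockdown cells. Of the 28 with copies 7 were higher alone in either, but summed with their copies 2 were higher and 21 lower in rescue cells (the 2 being Rpl10a and Rpl35a) and 1 higher and 21 lower in knockdown cells (the 1 being Rpl10a). Rplp0 had the lowest ratio in both, -1.21 in rescue and -1.22 in knockdown cells. The highest ratios were those of Rpl5, at 1.34 in rescue and 1.47 in knockdown cells, and of Rpl12, at 1.33 and 1.40, and both were negative after their copies were summed (-0.77 and -0.80 for Rpl5, -0.62 and -0.64 for Rpl12). Rpl10a, a large-subunit protein near the exit site for tRNA, had a log2 ratio above 0 in knockdown cells by edgeR (0.69, SE 0.095, adjusted p = 6.4e-06), and 0.54 with its copy Rpl10a-ps1 summed (adjusted p = 4.1e-05). In control cells Rpl10a had -0.06 (adjusted p = 0.60). The sixth and seventh members called higher in nuclei were Rpl10a and Rpl35a, and Rpl35a was at 0.58 in rescue and 0.49 in knockdown cells.

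**Figure D2:**
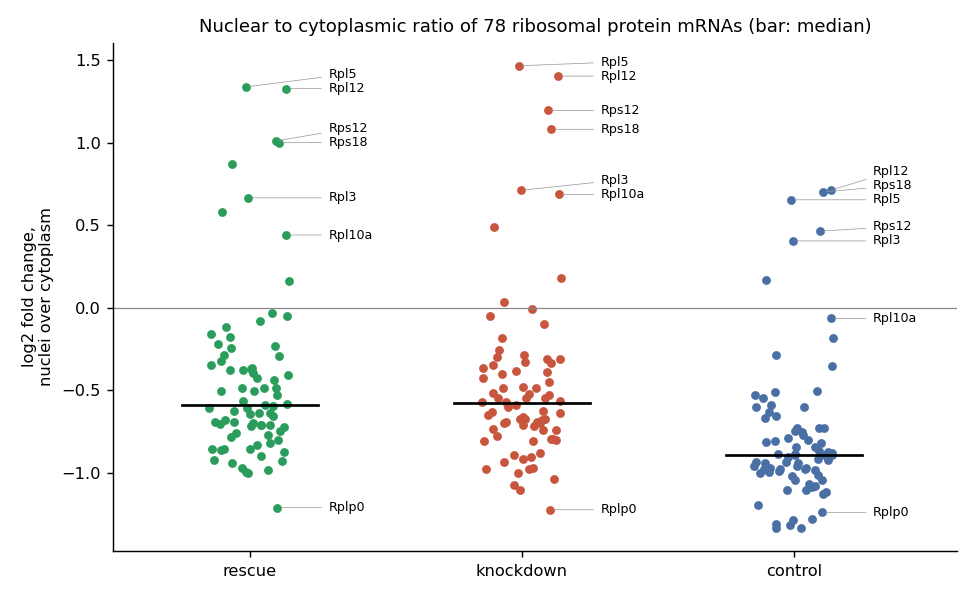
Log2 ratio of nuclei over cytoplasm for the 78 members (points, y axis) in rescue, knockdown and control cells (x axis), with the median as a bar. The medians are -0.59, -0.58 and -0.89.

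**Figure D3:**
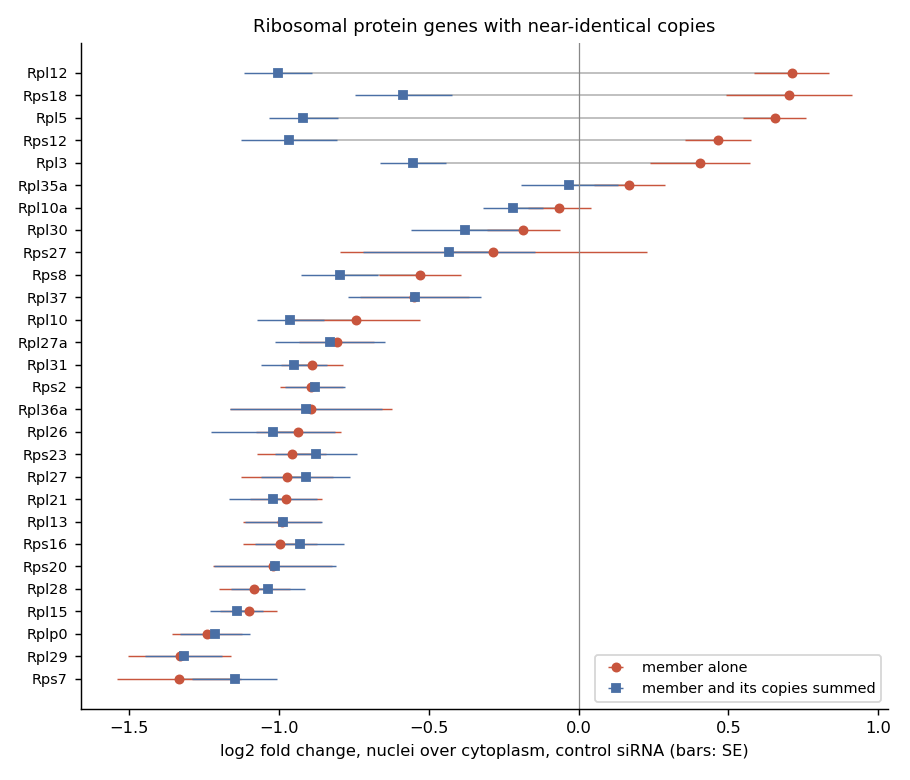
Log2 ratio of nuclei over cytoplasm in control cells, with its SE, for the 28 members that have near-identical copies, counted alone and summed with the copies. The 5 members called higher alone (Rpl12, Rps18, Rpl5, Rps12, Rpl3) are all below 0 when summed.

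After Chtop knockdown many ribosomal protein mRNAs were lower in cytoplasm than in control cells, each by a small amount. Of the 78 members 42 (53.8%) fell and 0 rose, beside 20.9% of all genes lower and 19.8% higher. The median log2 fold change was -0.28, which is 17.5% lower, 75 of 78 members were below 0 and the range was -0.69 to 0.36. Members of both subunits fell, 12 of 31 small-subunit members (median -0.22) and 30 of 47 large-subunit members (median -0.30). DESeq2 called 47 lower and 0 higher. The fall was larger in the mEx5 than in the pEx5 line, whose control had 1 library. Among the 50 members without copies the median was -0.38 in the mEx5 and -0.16 in the pEx5 line. The test of the difference between lines called 0 of all genes.

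Rpl12 fell most, to 101, 118, 104 and 127 CPM in knockdown cytoplasm, against 192, 201 and 156 CPM in control cytoplasm, and all knockdown libraries lay below all control libraries (log2 fold change -0.69, SE 0.082, adjusted p = 9.0e-05, edgeR). Summed with its copy it had 1335, 1324, 1202 and 1482 CPM in knockdown, against 1812, 1617 and 1541 CPM in control cytoplasm, with a log2 fold change of -0.34 (adjusted p = 0.0093, edgeR). The groups did not overlap on the summed scale either.

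Rpl35, which has no copy, had 458, 368, 507 and 400.4 CPM in knockdown, against 642, 512 and 725 CPM in control cytoplasm (log2 fold change -0.63, SE 0.12, adjusted p = 0.0017, edgeR). Its groups did not overlap, though the highest knockdown library came close to the lowest control library. Rpl28, a large-subunit protein with a TOP start, had 726, 741, 617 and 772 CPM in knockdown, against 1012, 1051 and 1037 CPM in control cytoplasm, a wide gap (log2 fold change -0.59, SE 0.085, adjusted p = 3.1e-04, edgeR). The other 3 of the lowest 6 were the large-subunit members Rpl36a at -0.64, Rpl29 at -0.56 and Rpl36 at -0.55. Of the counts of a member and its copy together, the copy took 83.6% for Rpl29, 19.6% for Rpl36a and 11.2% for Rpl28. Their values alone are thus uncertain, while Rpl36 has no copy. Of 10 fits that left out 1 library 8 kept the call of Rpl36a and 7 that of Rpl29. The lowest small-subunit member, Rps24, was picked out after its values had been seen. It had 639, 587, 684 and 595 CPM in knockdown, against 904, 763 and 837 CPM in control cytoplasm, without overlap (log2 fold change -0.47, SE 0.088, adjusted p = 0.0016, edgeR).

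Of the 5S ribonucleoprotein, both members fell. Rpl11, which as a free protein also binds Mdm2, had 899.9, 873, 944 and 937 CPM in knockdown, against 1286, 1079.9 and 1112 CPM in control cytoplasm, without overlap (log2 fold change -0.38, SE 0.080, adjusted p = 0.0031, edgeR). Rpl5 had 40.5, 42.9, 38.8 and 39.2 CPM in knockdown, against 63.98, 53.2 and 51.6 CPM in control cytoplasm (-0.50, SE 0.092, adjusted p = 0.0014, edgeR). Its groups did not overlap alone, but the summed value with Gm15500 was -0.16 (adjusted p = 0.15, edgeR) and was not called.

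Of the stalk 1 of 3 members fell. Rplp1 had 1085, 1153, 1197 and 1013 CPM in knockdown, against 1471, 1562 and 1094 CPM in control cytoplasm, with overlapping groups (log2 fold change -0.26, SE 0.094, adjusted p = 0.043, edgeR). Rplp0 had 2490.5, 2711, 2118 and 2696 CPM in knockdown, against 2703, 2635 and 2426 CPM in control cytoplasm, and was not called (-0.08, SE 0.091, adjusted p = 0.53, edgeR). Rplp2 was at -0.13 and was not called.

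Of 8 members around the exit of the nascent chain tunnel 5 fell, and of 9 members along the mRNA channel 4 fell, namely Rps2, Rps3, Rps14 and Rps23. In this comparison 20.9% of all genes were lower. Rps4x fell, at 1271, 1419, 1350 and 1326 CPM in knockdown, against 1949, 1802 and 1567 CPM in control cytoplasm (log2 fold change -0.40, SE 0.079, adjusted p = 0.002, edgeR), and its groups did not overlap. The other paralogs and their partners were not called, with Rps27l at 0.16, Rps27 at -0.22, Rpl39l at -0.19, Rpl39 at -0.19, Rpl3 at -0.22 and Rpl10 at 0.30. The highest member was Rps29, a zinc-binding small-subunit protein singled out after its values had been seen, at 0.36 with an SE of 0.45. Its pEx5 replicate 1 knockdown library stood far above the other libraries, at 388 CPM, against 99.7 to 162 CPM in the other knockdown libraries and 138 to 166 CPM in control.

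Members with and without copies fell. Of the 50 members without copies 25 fell (median -0.27), and of the 28 with copies 17 fell alone and 17 when summed. In 38 of 78 members every knockdown library lay below every control library, beside 21.3% of all genes, and in 0 members did every knockdown library lie above, beside 21.7%. In 53 of 78 members knockdown was lower in each of the 3 pairs of equal line and replicate number, beside 36.3% of all genes. These pairs are a description only, since the replicate number was not taken to pair samples in cytoplasm. Within pairs the median was -0.45 for mEx5 replicate 1 (77 of 78 below 0), -0.32 for mEx5 replicate 2 (75 of 78) and -0.22 for pEx5 replicate 1 (54 of 78).

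Other measures differed between these groups too. The summed CPM of the nuclear RNAs Malat1 and Neat1, 2 of a list of 5 nuclear RNAs that were in the count table, was 89.1 to 121.4 in knockdown cytoplasm and 58.8 to 81.7 in control cytoplasm, and Malat1 was 0.44 higher on the log2 scale (adjusted p = 0.0084, edgeR). In nuclei of control cells Malat1 alone had 792 to 1016 CPM. The mitochondrially encoded genes took 2.27 to 3.31% of counts in knockdown cytoplasm and 1.90 to 2.09% in control cytoplasm. The part of either in the fall of the members was not tested. With scaling by library totals alone 33 members fell and 0 rose, and all genes then split into 2277 higher and 1547 lower, against 1832 higher and 1931 lower with TMM scaling. With all 35 libraries in 1 fit, 22 fell, without the share of all genes in that fit beside it.

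**Figure D4:**
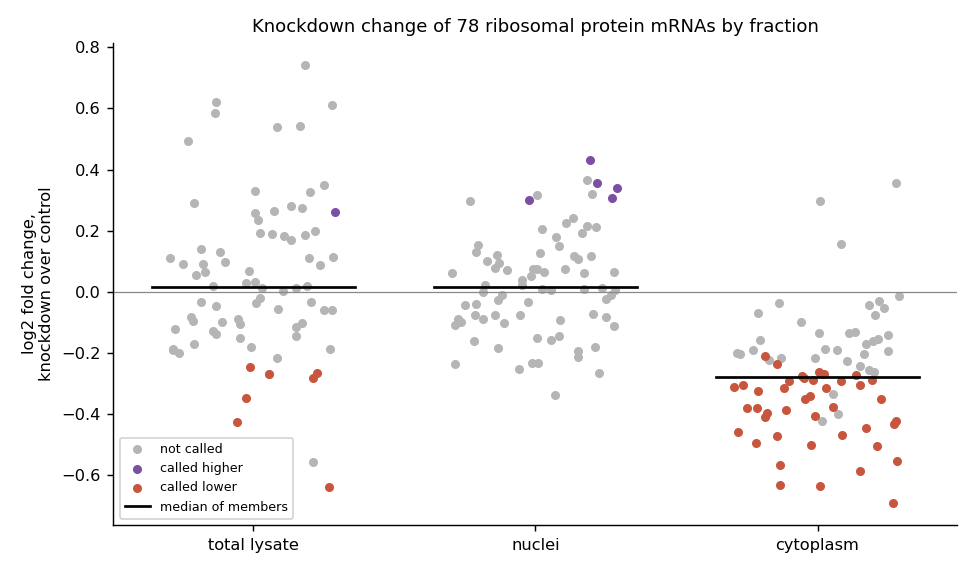
Log2 fold change of knockdown over control for the 78 members (points, y axis) in total lysate, nuclei and cytoplasm (x axis), coloured by whether the adjusted p was under 0.05. In cytoplasm 42 members are called lower and 0 higher; in total lysate 7 are lower and 1 higher; in nuclei 5 are higher.

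**Figure D5:**
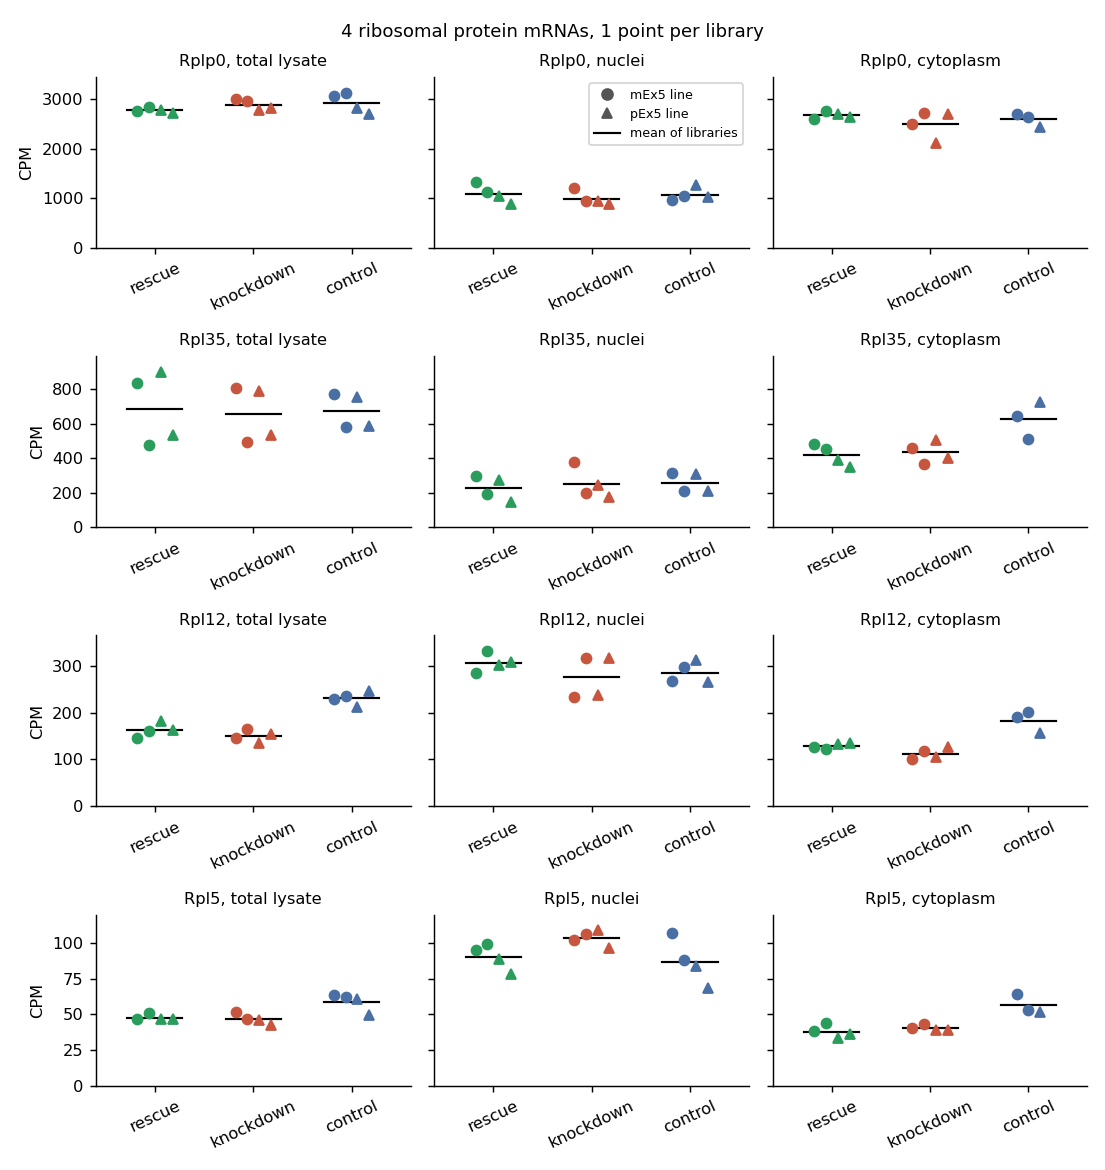
CPM (y axis, from 0) of Rplp0, Rpl35, Rpl12 and Rpl5 in every library of rescue, knockdown and control cells in each fraction. Cytoplasmic Rpl35, Rpl12 and Rpl5 lie lower in knockdown than in control in every library, and Rplp0 overlaps.

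In total lysate few ribosomal protein mRNAs were called between knockdown and control cells, and the balance of directions differed between fits. By edgeR 7 members (8.97%) fell and 1 (1.28%) rose, beside 22.6% of all genes lower and 21.4% higher, both larger shares, and the median was 0.02 with 42 members above and 36 below 0. The members called lower were Rpl12, Rpl26, Rpl5, Rpl7a, Rpl8, Rps2 and Rps4x, and 6 of these 7, all but Rpl26, were also called lower in cytoplasm. DESeq2 called 10 lower and 1 higher. Among the 50 members without copies 3 fell and 0 rose, with a median of 0.05. With a trend in transcript length taken out, 32 members were lower and 1 higher, beside 26.8% of all genes lower and 25.3% higher, and the median was -0.14.

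Rpl12 had 145, 164, 135 and 155 CPM in knockdown, against 229, 235, 211 and 246 CPM in control cells, without overlap (log2 fold change -0.64, SE 0.077, adjusted p = 1.8e-04, edgeR). Summed with its copy it was at -0.09 (adjusted p = 0.41). Rps4x had 1764, 1594, 1506 and 1377 CPM in knockdown, against 1995, 1905, 1710.2 and 1712 CPM in control cells, with overlap (-0.24, SE 0.083, adjusted p = 0.036, edgeR).

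Rpl30, a large-subunit protein, rose to 144, 128, 121 and 131 CPM in knockdown, against 108, 119, 108 and 98.02 CPM in control cells, with all knockdown libraries above all control libraries (0.26, SE 0.073, adjusted p = 0.016, edgeR). Summed with its copy it was at 0.41 (adjusted p = 0.079). Of the others, Rpl26 was at -0.43 alone and -0.01 summed, and Rpl5 at -0.35 alone and 0.00 summed (adjusted p = 0.96), so neither call held on the summed scale. With copies summed 4 members fell (Rpl7a, Rpl8, Rps2 and Rps4x) and 0 rose.

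In total lysate samples of equal replicate number deviated together in all 15 pairs of groups, so the replicate number was also used as a block. With this block 13 members fell and 14 rose, beside 31.4% of all genes lower and 31.4% higher. With the block and the length trend together 41 were lower and 5 higher, beside 33% and 32.9%. Every knockdown library lay below every control library for 3 members and above for 2, beside 19.6% and 19.2% of all genes. The whole-cell counts changed when a control library was left out, to 5 without mEx5 control replicate 1, 5 without mEx5 control replicate 2 and 4 without pEx5 control replicate 2.

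In knockdown nuclei 5 members (6.41%) rose and 0 fell against control nuclei, beside 15.4% of all genes higher and 16% lower, again larger shares. The median was 0.02, or -0.02 when scaled by library totals alone. The 5 were Rps12, Rps19, Rpl30, Rpl10a and Rpl5. Every knockdown library lay above every control library for 3 members and below for 0, beside 15% and 14.6% of all genes. DESeq2 called 5 higher and 1 lower. In nuclei too all 15 pairs of groups deviated together by replicate number, and with the replicate block 14 members rose and 10 fell, beside 27.8% and 27.6% of all genes. With the length trend taken out 4 were higher and 10 lower, beside 18.4% and 20.3% of all genes, with a median of -0.064. With trend and block together 8 were higher and 19 lower, beside 28.8% and 29.2%. Of the 50 members without copies 1 rose, Rps19, and 0 fell in the fit with neither.

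Rps19, a small-subunit protein whose human gene is mutated in Diamond-Blackfan anaemia, has no copy. It had 441, 492, 408 and 433 CPM in knockdown, against 358, 363, 373 and 326 CPM in control nuclei, without overlap (log2 fold change 0.36, SE 0.084, adjusted p = 0.0096, edgeR). In cytoplasm Rps19 was at -0.03 and was not called.

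Rps12 had 149, 129, 118 and 123 CPM in knockdown, against 106, 101, 108 and 80.5 CPM in control nuclei, without overlap (0.43, SE 0.10, adjusted p = 0.011, edgeR). Summed with Rps12-ps3 it was at 0.13 (adjusted p = 0.61). Rpl10a had 1109, 1072, 1004 and 949 CPM in knockdown, against 835, 828, 978 and 781 CPM in control nuclei, with overlap (0.31, SE 0.094, adjusted p = 0.031, edgeR), and its summed value was 0.30 (adjusted p = 0.039). With copies summed Rpl30 was at 0.26 (adjusted p = 0.22) and Rpl5 at -0.06 (adjusted p = 0.76), so that Rps19 and Rpl10a were the 2 calls left. Of 12 fits that left out 1 library, 5 kept the call of Rpl10a alone, 6 that of Rpl30 and 5 that of Rpl5. Leaving out 1 library brought the count to 2 without mEx5 knockdown replicate 1, mEx5 knockdown replicate 2, mEx5 control replicate 2, pEx5 knockdown replicate 1 or pEx5 control replicate 2, and to 3 without mEx5 control replicate 1.

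The change of the nuclear to cytoplasmic ratio on knockdown is the knockdown change in nuclei minus that in cytoplasm, so it shares its libraries with both comparisons above. It was positive for 75 of 78 members with a median of 0.33, while the median of all genes was 0.011. By edgeR 4 members (5.13%) shifted up and 0 down, beside 3.83% of all genes up and 1.31% down, and 19 members had an unadjusted p under 0.05. The share of members called was thus near that of all genes. Of the 50 members without copies 0 were called by edgeR, and 48 were above 0 with a median of 0.32. By DESeq2 5 of the 78 were called up and 0 down.

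The 4 were Rpl5 (0.81, SE 0.14, adjusted p = 0.0035), Rpl10a (0.75, SE 0.14, adjusted p = 0.0067), Rps12 (0.73, SE 0.14, adjusted p = 0.0097) and Rpl12 (0.69, SE 0.16, adjusted p = 0.025), each by edgeR. With copies summed 1 member was called, Rpl10a at 0.76 (adjusted p = 0.0041, edgeR), while Rpl5 was at 0.12 (adjusted p = 0.73), Rps12 at 0.29 (adjusted p = 0.49) and Rpl12 at 0.36 (adjusted p = 0.19). Rpl10a had 678, 751, 579 and 760.5 CPM in knockdown, against 951, 942 and 856 CPM in control cytoplasm, without overlap, beside the nuclear values given above. Its position is chr17:28328471-28331033 on the plus strand of GRCm38, in GENCODE M21.

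Scaled by library totals alone, the median shift of the members was 0.23 and that of all genes -0.089, and all genes split into 206 up and 411 down, against 354 up and 121 down with TMM scaling; 4 members were called up under either. In the authors' deposited table of differences between fraction ratios, 74 of 78 members were above 0 with a median of 0.33, beside 4778 of 9239 genes and a median of 0.011.

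The knockdown change in cytoplasm was also set against that in total lysate. Its difference had a median of -0.33 over the members, which was -0.19 without mEx5 knockdown replicate 1 in total lysate and -0.45 without replicate 2, and -0.045 with a length trend taken out, and edgeR called 0 members, as it called 0 of all genes, with 5 members at an unadjusted p under 0.05 and 0 called by DESeq2. In control cells cytoplasm itself was lower than total lysate for 14 members and higher for 0, with a median of -0.24, beside 9.86% of all genes lower and 18.6% higher. DESeq2 called 26 lower and 0 higher in that comparison, which was added after the data had been seen.

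Induction of the siRNA-resistant cDNA brought Chtop mRNA above control but moved no ribosomal protein mRNA past the threshold. By edgeR 0 members, alone or with copies summed, were called in total lysate, nuclei or cytoplasm over both lines, beside at most 0.0325% of all genes in 1 direction. At an unadjusted p under 0.05 there were 0 in total lysate, 5 in nuclei and 1 in cytoplasm, and DESeq2 called 0, 1 and 0. The medians were 0.00 in total lysate, 0.02 in nuclei and 0.03 in cytoplasm. Without 1 library, pEx5 knockdown replicate 2, edgeR called 19 members in cytoplasm, 9 higher and 10 lower. With the replicate block 8 members were called in nuclei, 2 higher and 6 lower. Rescue libraries all lay above knockdown libraries for 1 member in total lysate, 3 in nuclei and 0 in cytoplasm, beside 1.45%, 2.07% and 2.24% of all genes, and all lay below for 0, 1 and 0 members, beside 1.91%, 2.44% and 2.21%.

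Rpl12, the only member with an unadjusted p under 0.05 in cytoplasm, had 126, 123, 132 and 136 CPM in rescue, against 101, 118, 104 and 127 CPM in knockdown cytoplasm (log2 fold change 0.19, SE 0.075, adjusted p = 0.51, edgeR), with overlap. Rpl35 had 484, 452, 390.1 and 347 CPM in rescue cytoplasm and Rpl11 had 959.9, 965, 939.8 and 906 CPM, both overlapping the knockdown values given above. Rplp0 had 2585, 2761, 2703 and 2632 CPM in rescue cytoplasm, with overlap. The shift of the nuclear to cytoplasmic ratio between rescue and knockdown was called for 0 members by edgeR and by DESeq2, beside 0.0216% of all genes down, with 1 member at an unadjusted p under 0.05.

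Against control cells, rescue cells also had many members lower in cytoplasm, measured against the same control libraries as the knockdown. In rescue cytoplasm 35 members (44.9%) fell and 0 rose, with a median of -0.28, beside 18.4% of all genes lower and 17.2% higher, and 74 of 78 members were below 0. DESeq2 called 41 lower and 0 higher. Of the 50 members without copies 24 fell (median -0.29), and of the 28 with copies 11 fell alone and 13 when summed. With the length trend taken out 15 of the 78 members fell and 0 rose, with a median of -0.10. The 18.4% of all genes lower belongs to the fit that kept the trend. The share of all genes in the fit without it is not given here, so these 15 have no matched background. The lowest were Rpl35 at -0.70, Rpl36a at -0.67, Rpl41 at -0.65, Rpl5 at -0.60, Rpl37a at -0.57 and Rpl36 at -0.56. In 29 members every rescue library lay below every control library, beside 22% of all genes. The summed CPM of Malat1 and Neat1 was 91.3 to 101.4 in rescue cytoplasm and 58.8 to 81.7 in control cytoplasm, and the mitochondrially encoded genes took 2.04 to 2.52% of counts in rescue cytoplasm, against 1.90 to 2.09% in control; their part was not tested.

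Rpl5 had 37.97, 44.2, 33.02 and 36.1 CPM in rescue, against 63.98, 53.2 and 51.6 CPM in control cytoplasm, without overlap (-0.60, SE 0.092, adjusted p = 5.6e-04, edgeR). Rps4x had 1440.1, 1575, 1292 and 1376 CPM in rescue, against 1949, 1802 and 1567 CPM in control cytoplasm (-0.33, SE 0.079, adjusted p = 0.0073, edgeR), where 1 rescue library lay above the lowest control library. With library totals alone 27 members fell, and all genes split into 2115 higher and 1308 lower, against 1593 and 1703. The count was 8 with all 35 libraries in 1 fit, 21 without mEx5 control replicate 1 and 22 without mEx5 rescue replicate 1. It was 56 without either pEx5 knockdown library, which enter this comparison only through the spread of the fit. The shares of all genes in these fits are not given beside the counts.

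In total lysate 10 members fell and 3 rose in rescue against control cells, beside 19% and 18.3% of all genes, and in nuclei 0 fell and 3 rose, beside 12.2% and 11.5%. DESeq2 called 13 lower and 3 higher in total lysate and 0 lower and 5 higher in nuclei. With the replicate block the counts were 20 lower and 12 higher in total lysate, beside 28.3% and 29.6% of all genes, and 6 lower and 9 higher in nuclei, beside 25.5% and 24.4%. With the length trend taken out 27 were lower and 1 higher in total lysate, and 2 lower and 2 higher in nuclei. The shares of all genes in those fits are not given beside these counts. With copies summed 5 fell and 1 rose (Rpl30) in total lysate, and 0 fell and 1 rose (Rps19) in nuclei. Members without copies gave 4 lower and 0 higher of 50 in total lysate, and 0 lower and 1 higher in nuclei. In total lysate the lowest were Rpl12 at -0.53, Rpl26 at -0.36, Rpl8 at -0.33, Rpl5 at -0.33, Rps2 at -0.31 and Rpl7a at -0.30, of which Rpl26 and Rpl5 turned to 0.02 with copies summed. The 3 that rose were Rps27, Rpl10 and Rpl30. Rps27 had 34.4, 35.5, 112 and 30.2 CPM in rescue, against 65.4, 17.6, 4.47 and 10.8 CPM in control cells, with overlap (1.47, SE 0.51, adjusted p = 0.049, edgeR). Leaving out 1 library in turn gave 0.82 to 2.09, with the call kept in 2 of 12 fits and the lowest value without pEx5 rescue replicate 1, and the summed value was 0.93 (adjusted p = 0.071, edgeR). Rpl10 was at 0.49 alone and -0.02 summed, and Rpl30 at 0.21, a call kept in 3 of 12 fits that left out 1 library. In nuclei Rps18 was at 0.50 alone and -0.01 summed, with the call of Rps18 alone kept in 8 of 12 such fits. Rpl26 was at 0.47 alone and 0.19 summed with its copy (adjusted p = 0.60, edgeR). Leaving out 1 library gave Rpl26 alone 0.28 to 0.63, the lowest without mEx5 rescue replicate 1, and kept the call in 2 of 12 fits. Rps19 was at 0.40, with the call kept in 12 of 12. Rps19 had 511, 497, 461 and 409.7 CPM in rescue nuclei, again above every control library.

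The total lysate count was 6 without mEx5 control replicate 1, 7 without mEx5 control replicate 2, 5 without mEx5 rescue replicate 1 and 8 without either pEx5 control library. The nuclear count was 1 without mEx5 control replicate 1, mEx5 rescue replicate 1 or pEx5 control replicate 2, and 5 without pEx5 control replicate 1.

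The fall in knockdown cytoplasm was also taken line by line. In the pEx5 line 9 members fell and 0 rose, beside 8.34% of all genes lower and 6.02% higher, and in the mEx5 line 44 fell and 0 rose, beside 16.5% and 15%. The median was -0.19 in the pEx5 and -0.38 in the mEx5 line. Rpl12 was at -0.47 in the pEx5 and -0.91 in the mEx5 line, and Rpl35 at -0.72 in the pEx5 and -0.55 in the mEx5 line, all called. Without copies, 5 of 50 members fell in the pEx5 and 28 in the mEx5 line. The pEx5 control cytoplasm had 1 library, which the fit took to vary like the other groups. The share of members called lower in cytoplasm was near that of all genes in the pEx5 line and well above it in the mEx5 line. In knockdown nuclei the median was -0.12 in the pEx5 line, with 24 of 78 members above 0, and 0.16 in the mEx5 line, with 66 of 78 above 0. There 1 member rose in each line and 0 fell, beside 9.64% of all genes higher and 10.1% lower in the pEx5 line and 5.87% and 5.92% in the mEx5 line. In total lysate 2 fell in the pEx5 line and 1 in the mEx5 line and 0 rose, beside 13.7% of all genes lower and 11.9% higher in the pEx5 line and 12.7% and 11% in the mEx5 line.

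The difference between the lines was itself tested, and edgeR called 0 members in any fraction, as it called 0 of all genes. At an unadjusted p under 0.05 there were 1 in total lysate, 0 in nuclei and 7 in cytoplasm, and DESeq2 called 0 in each. Without pEx5 knockdown replicate 2 edgeR called 2 in cytoplasm.

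The shift of the nuclear to cytoplasmic ratio on knockdown was above 0 for 54 of 78 members in the pEx5 line, with a median of 0.10, and for 78 of 78 in the mEx5 line, with a median of 0.54. In the pEx5 line edgeR called 0 members, beside 0.617% of all genes up, with 3 members at an unadjusted p under 0.05, and in the mEx5 line it called 1, Rpl10a at 0.92, beside 0.649%. The difference between these shifts was not tested.

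For rescue against knockdown in cytoplasm the median was -0.11 in the pEx5 line, with 30 of 78 members above 0, and 0.15 in the mEx5 line, with 72 of 78 above 0. By edgeR 0 members were called in either line. At an unadjusted p under 0.05 there were 24 in the pEx5 and 4 in the mEx5 line, without the counts of all genes beside them. Among those 24 were Rpl37 at -0.71, Rpl41 at -0.70 and Rpl37a at -0.68, 3 large-subunit members chosen after their values had been seen. The difference between the lines' rescue responses was called for 0 members by edgeR in any fraction, as for 0 of all genes. At an unadjusted p under 0.05 there were 29 members in cytoplasm, 1 in nuclei and 3 in total lysate, without the counts of all genes beside them. In cytoplasm this difference went with transcript length, at a Spearman correlation of 0.43 across all genes and 0.59 across the members. The part of length in it was not tested. DESeq2 called 5 members in cytoplasm, all lower in the pEx5 line, and 0 in the other fractions. Without pEx5 knockdown replicate 2, edgeR called 26 members in cytoplasm for this difference, 3 higher and 23 lower.

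The transcript length implied by the counts and RPKM was 553 bases at the median of the members, against 2587 bases over all genes. It is a relative measure and not an annotated length. Among members it went down to 139 bases, while the longest annotated transcripts of members had a median of 1076.5 and a minimum of 383 bases. All correlations, splits and trends of length here and above used the implied length. Across the 78 members the Spearman correlation of length with the knockdown change was -0.60 in total lysate and -0.23 in cytoplasm, and across all genes it was -0.08 and 0.16. These are descriptions across genes, which share libraries and are not independent. The ratio of nuclei over cytoplasm in control cells went with length at 0.41 across all genes and at -0.13 across the members. With a trend in length taken out, the median ratio of the members was -0.34, in place of -0.89, and the median knockdown change was -0.21 in cytoplasm, in place of -0.28. In total lysate it was -0.14, in place of 0.02. With the trend taken out 29 members were lower and 0 higher in cytoplasm, beside 21.8% of all genes lower and 20.6% higher; the counts in total lysate and nuclei are given above. Of the shorter 39 members 15 fell in knockdown cytoplasm (median -0.22), and of the longer 39 members 27 fell (median -0.30). These counts are from the fit that kept the trend, where 20.9% of all genes were lower.

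Of the 13 members with a TOP run at the annotated start 4 fell in knockdown cytoplasm (median -0.22), beside 20.9% of all genes lower. Of the 45 with an entry and no run at that base 25 fell (median -0.31), and of the 20 with no entry 13 fell (median -0.29). With a start allowed within 10 bases 36 of the 58 members with an entry had a run, so many of the 45 have one nearby. No split of the changes by that wider rule was made. In nuclei against cytoplasm of control cells 8 of 13, 39 of 45 and 17 of 20 were lower. Among the 6 windows shown, Rpl35, Rpl28 and Rps6 have a run at the annotated start and fell in cytoplasm. Rplp2 has a run there and did not pass the test. Rpl12 and Rpl5 have none at that base and fell alone, of which Rpl5 was not called with its copy. Within 10 bases of the annotated start Rpl12 does have a run.

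Many members host small nucleolar RNAs, which guide rRNA modification, in their introns. A snoRNA gene lay inside 29 of the 78 members (37.2%), against 2.45% of all genes. In knockdown cytoplasm 18 of these 29 and 24 of the other 49 fell, beside 20.9% of all genes lower. The authors' deposited table marks overlap with Chtop iCLIP, a map of direct RNA contacts, for 5 of the 78 members (6.41%), Rps15, Rpl4, Rpl10a, Rpl10 and Rpl3, and for 48.5% of all its genes.

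Of 24 other TOP mRNAs, chiefly of translation factors, 9 (37.5%) fell and 0 rose in knockdown against control cytoplasm, beside 20.9% of all genes lower and 19.8% higher, with a median of -0.17. Vim, an intermediate filament protein, was at -1.01 (adjusted p = 3.9e-05, edgeR), Eef1g, an elongation factor subunit, at -0.87, Npm1, a nucleolar chaperone, at -0.59 and Eif2s3x, an initiation factor subunit, at -0.40. Of the same 24, 6 (25%) fell and 1 rose in total lysate, near the 22.6% of all genes lower there, among them Vim at -0.95, Eef1g at -0.87, Npm1 at -0.43 and Eef2, the translocation factor, at -0.38. In nuclei 4 (16.7%) were lower and 0 higher, near the 16% of all genes lower, namely Vim at -0.79, Eef1g at -0.69, Eef2 at -0.40 and Eif2s3x at -0.31. In control cells 22 of the 24 (91.7%) were lower and 2 higher in nuclei than in cytoplasm, beside 36.1% and 33.8% of all genes, with a median of -0.88.

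Ribosome biogenesis factors process rRNA and assemble subunits in the nucleolus. In knockdown total lysate 24 of 57 (42.1%) were higher and 2 (3.51%) lower, beside 21.4% and 22.6% of all genes, with a median of 0.22, led by Nop10, of the H/ACA snoRNPs, at 1.16, Nop58 at 0.63, Npm3 at 0.62 and Imp4 at 0.57. In knockdown nuclei 20 (35.1%) were higher and 0 lower, beside 15.4% and 16% of all genes, with a median of 0.29, led by Nat10, an rRNA acetyltransferase, at 0.77, Rrp12 at 0.66, Riok2 at 0.62 and Rrp9 at 0.58. In knockdown cytoplasm 17 (29.8%) were higher and 6 (10.5%) lower, beside 19.8% and 20.9% of all genes, with a median of 0.09, and the largest changes were those of Nop10 at 0.73, Npm1 at -0.59, Heatr1 at 0.53 and Utp20 at 0.51.

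Of 13 genes of RNA polymerase I, which transcribes rRNA, 5 were higher and 1 lower in knockdown cytoplasm, 5 higher and 2 lower in total lysate, and 6 higher and 1 lower in nuclei, beside the shares of all genes just given for each fraction. The polymerase subunit Polr1d was at -1.07 in cytoplasm, -0.84 in total lysate and -0.67 in nuclei, and Cd3eap, another subunit, at 0.49, 0.69 and 0.77. Of 12 dedicated chaperones of ribosomal proteins, Bccip at -0.41 and Heatr3 at -0.39 fell and Grwd1 at 0.37 rose in knockdown cytoplasm. Both shares were under the 20.9% of all genes lower and 19.8% higher. Of 17 regulators of TOP mRNAs and ribosomal protein genes 2 (11.8%) were higher and 4 (23.5%) lower there, shares near or under the 19.8% and 20.9% of all genes, with the kinases Rps6kb2 at -0.57 and Mtor at -0.45, the transcription factor Max at 0.43 and the translation repressor Eif4ebp2 at -0.31. In total lysate 1 (5.88%) was higher and 3 (17.6%) lower, both under the shares of all genes, with Mtor at -0.53. Of 7 ribosomal protein genes outside the naming rule 1 fell in knockdown cytoplasm, a share under the 20.9% of all genes. It was Rpl22l1, a paralog of Rpl22, at -0.44 (adjusted p = 0.026, edgeR). In control cells 5 of these 7 were lower in nuclei than in cytoplasm, beside 36.1% of all genes.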

How the data were processed

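Poly(A) RNA-seq of 35 libraries was used as the authors deposited it. The submitters' processing notes name mm10, DESeq2 without a version and Salmon 0.14.1; Salmon can split reads between near-identical transcripts. The deposited count table holds whole-number counts for 9239 genes, and how these genes were chosen is not stated. The authors' RPKM values, scaled to transcript length and library size per the file headers, cover 54393 genes and served only for levels between genes, for the implied lengths and for markers; 1 RPKM column matched no labelled sample and was left aside. The authors' deposited log2 fold changes between fractions and their marks of iCLIP overlap are quoted only as theirs.

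Counts were tested with edgeR 4.0.16 (limma 3.58.1, R 4.3.3) in 1 fit per fraction, 1 for nuclei with cytoplasm and 1 for all 35 libraries. Genes were kept by filterByExpr (2 genes left out in total lysate, 1 in cytoplasm and 0 in the others), scaled by TMM, and tested by quasi-likelihood F tests (robust, 1 coefficient per group). Contrasts average both lines unless a line is named. The Benjamini-Hochberg adjustment ran over every gene of the fit, and genes with an adjusted p under 0.05 were called. Counts of members at an unadjusted p under 0.05 are given without the counts of all genes, so they have no background beside them. SEs of log2 fold changes were derived from the F statistics. CPM values are counts over library totals, without TMM. DESeq2 1.42.0 was an alternative. The procedure was tested on simulated counts. Depth was 11681781 to 40105458 counts per library, and a member's count was never under 85.

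Near-identical copies are annotated GENCODE M21 genes in the count table that share at least 50% of their 31-base words with a member's transcripts. Promoter windows came from RefSeq on GRCm38.p6, the assembly of mm10. Samples of equal replicate number in different groups deviated together, with a correlation of deviations over 0.1, in 15 of 15 pairs of groups in total lysate (0.349 to 0.794). They did so in 15 of 15 in nuclei (0.525 to 0.720), but in 7 of 10 in cytoplasm. Nuclei and cytoplasm of the same line and condition deviated together in 4 of 5 pairs (median 0.302). The number was therefore taken to pair samples in total lysate and nuclei only, from the data and not from the labels. Nuclei and cytoplasm of a culture come from the same cells, but the main tests between them took all libraries as independent. Replicates are called biological in the labels; whether they were separate thaws or days is not stated.

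The members and gene lists were chosen with earlier results of these data known. Named are Chtop and, in each comparison, up to 6 called members with the highest and 6 with the lowest log2 fold change. The 8 members with the highest and 8 with the lowest RPKM, the stalk, the 5S ribonucleoprotein and the paralogs with their partners are named too. Of each other list all called genes could be named if 4 or fewer, else the 4 with the largest change. For some lists, such as the RNA polymerase I genes, only part of these is named. Alternatives were DESeq2 or its size factors, library totals, TMM without the members, no filter, all libraries in 1 fit, a replicate or culture block, a length trend taken out, members summed with copies, and each library left out.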

Additional observations from a re-analysis of the deposited data

Results flagged for a closer look

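In 6 of 152 groups of 4 libraries tested, 1 library stood far from the others by Dixon's test, which chance gives in about 1 of 20 groups. Rpl5 in rescue total lysate had 50.51 CPM in mEx5 replicate 2, against 46.37 to 46.75 CPM in the others. Rps19 in rescue cytoplasm had 712 CPM in mEx5 replicate 2, against 556.4 to 581.4 CPM. Rplp0 in knockdown nuclei had 1207 CPM in mEx5 replicate 1, against 893.4 to 944 CPM. Rplp1 in knockdown total lysate had 2067 CPM in mEx5 replicate 1, against 1401 to 1501 CPM. In pEx5 replicate 1 of rescue total lysate both Rplp2, at 904 CPM against 567.9 to 615 CPM, and Rps27, at 112.2 CPM against 30.22 to 35.55 CPM, stood above the other libraries.

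For 4 members the effect of knockdown differed between nuclei and cytoplasm by a test of the difference itself, on the log2 scale and by edgeR: Rpl5 by 0.812, Rpl10a by 0.7512, Rps12 by 0.7305 and Rpl12 by 0.6913. Summed with their copies, Rpl10a alone of these 4 was called.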

How the results depend on the processing

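Counts of called members are given in place of those in the report, and the cause of each change was not tested. They stand here without the shares of all genes called under the same settings. With a replicate block, for samples paired by replicate number, the count was 27 for knockdown against control in total lysate (in place of 8), 24 in nuclei (5), 32 for rescue against control in total lysate (13), 15 in nuclei (3), and 8 for rescue against knockdown in nuclei (0). In cytoplasm and for nuclei against cytoplasm, where not every pair of groups deviated together by number, the block left every count within 1.5 times. Nuclei and cytoplasm of a culture come from the same cells, and a block by culture also left the counts between them within 1.5 times. With a length trend taken out the counts were 33 (1 higher, 32 lower) and 14 (4 higher, 10 lower) for knockdown against control in total lysate and nuclei, where the nuclear balance of 5 higher and 0 lower turned to mostly lower. They were 28 (1 higher, 27 lower) and 15 (0 higher, 15 lower) for rescue against control in total lysate and cytoplasm. With the trend and the block together they were 46 (5 higher, 41 lower) and 27 (8 higher, 19 lower) for knockdown against control in total lysate and nuclei, 48 (11 higher, 37 lower), 22 (8 higher, 14 lower) and 21 (0 higher, 21 lower) for rescue against control in total lysate, nuclei and cytoplasm, 6 for rescue against knockdown in nuclei and 11 for the shift of the nuclear to cytoplasmic ratio on knockdown (4). With all 35 libraries in 1 fit they were 22 for knockdown against control in cytoplasm (42), 8 for rescue against control in cytoplasm (35) and 1 for rescue against knockdown in nuclei. DESeq2 called 1 for rescue against knockdown in nuclei, 5 for rescue against control in nuclei and 5 for the difference of the rescue responses between lines in cytoplasm (0).

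With members summed with their copies, chosen after seeing the data, the counts were 4 and 2 for knockdown against control in total lysate and nuclei, 6 and 1 for rescue against control in total lysate and nuclei, and 1 for the shift on knockdown. The sign turned for Rpl5 in knockdown against control in total lysate (0.0047) and nuclei (-0.058), and for Rpl10 (-0.025), Rpl26 (0.019) and Rpl5 (0.024) in rescue against control in total lysate and Rps18 (-0.0057) in nuclei. It turned for 5 members in nuclei against cytoplasm. Rpl12 was then at -0.62 in rescue, -0.64 in knockdown and -1.0 in control cells, Rpl5 at -0.77, -0.80 and -0.92, Rps12 at -0.65, -0.67 and -0.97, Rps18 at -0.25, -0.15 and -0.58, and Rpl3 at -0.44, -0.46 and -0.55 in the same order of cells.

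Leaving out each library in turn gave counts of 4 to 10 for knockdown against control in total lysate, 2 to 5 in nuclei and 28 to 56 in cytoplasm. It gave 0 to 0 for rescue against knockdown in total lysate and nuclei and 0 to 19 in cytoplasm, and 5 to 14, 1 to 5 and 21 to 56 for rescue against control in total lysate, nuclei and cytoplasm. For nuclei against cytoplasm the ranges were 57 to 68 in rescue, 57 to 66 in knockdown and 66 to 73 in control cells. They were 3 to 4 for the shift on knockdown, 0 to 0 for the shift on rescue and for the change in cytoplasm minus total lysate, and 7 to 20 for cytoplasm against total lysate. For the differences between lines they were 0 to 2 (knockdown) and 0 to 26 (rescue) in cytoplasm and 0 to 0 in total lysate and nuclei. No value of a cytoplasmic comparison of pEx5 control cells exists without their only library.

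In the settings that left out no library, 187 other counts stayed within 1.5 times those in the report. Of the 42 members lower in knockdown cytoplasm, 42 were called by DESeq2, 41 with the replicate block, 33 with library totals alone, 26 with the length trend taken out and 38 when summed with copies. Library totals alone moved the median of all genes in nuclei against cytoplasm to -0.13 in rescue and -0.14 in knockdown cells, and that of the members to -0.67 and -0.69. With the length trend taken out the median of the members in nuclei against cytoplasm was -0.24 in rescue, -0.20 in knockdown and -0.34 in control cells.

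Limits: depth did not bound the members, whose lowest count was 85, but 1 control library in pEx5 cytoplasm and 2 libraries in the other groups set the spread. Without spike-in RNA a change shared by most mRNAs of a fraction cannot be seen. Values of the 28 members with copies depend on how reads were placed.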
